A study of Mus musculus with 15 samples.

Results

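The genes described here are the SR proteins and the heterogeneous nuclear ribonucleoproteins (hnRNPs) of mouse splenic B cells, taken as every gene whose only annotated symbol on an array row begins with Srsf or Hnrnp. This gave 31 genes, 11 Srsf and 20 Hnrnp, of 31265 genes on the array, among them the pseudogene Hnrnpa1l2-ps. They are covered by 562 exon regions (short stretches of an exon with their own probes) and 348 exon-exon junctions. Unless another is named, each gene is given by the log2 median over its exon regions, called its value.

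By its title the study concerns RNA splicing as B cells become antibody-secreting cells, here with and without ELL2, an elongation factor of RNA polymerase II. Primary B cells were isolated on magnetic columns from the spleens of C57BL/6 mice and hybridised to 15 arrays in 4 groups. These were ELL2 cko cells cultured with lipopolysaccharide (LPS) for 72 hours (3 arrays), WT cells cultured likewise (4 arrays), ELL2 cko cells processed at once without LPS (4 arrays) and WT cells processed at once without LPS (4 arrays). The Cre driver and the deleted exons of the ELL2 cko are not given in the sources used here, and no group was cultured without LPS, so LPS and 72 hours of culture cannot be told apart.

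SR proteins carry RNA recognition motifs and a tail rich in arginine and serine, bind enhancer sequences in exons and help recruit the spliceosome. The hnRNPs coat nascent transcripts and often repress the splice sites they bind, so that the balance of both families is known to set which exons are kept. Many genes of both families also control themselves by splicing in a poison exon that sends their own transcript to nonsense-mediated decay. In lymphocytes hnRNPLL is known for skipping the variable exons of Ptprc (CD45), and hnRNPLL and hnRNP F are known to act on the processing of the immunoglobulin heavy chain transcript as B cells become plasma cells.

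The labels were checked on Ell2 itself. Its value was 14.15, 14.16 and 14.14 in ELL2 cko cells with LPS, against 16.86, 15.90, 16.56 and 15.73 in WT cells with LPS, and the groups did not overlap (difference -2.11 ± 0.29 SE, adjusted p = 0.0009). Without LPS it was 10.38, 9.78, 10.75 and 11.17 in ELL2 cko cells, against 11.07, 10.87, 11.08 and 11.10 in WT cells, and the groups overlapped. Every p below comes from limma, fitted over all 15 arrays and all genes with Benjamini-Hochberg adjustment, and "called" means an adjusted p under 0.05. The number of arrays, 3 or 4 in a group, limits the precision. Cells were isolated from each mouse, per the labels, but no label ties an array to an animal, so p-values measure the spread between these samples.

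Markers of other cell types were high in some arrays. In ELL2 cko cells 13 T cell markers averaged 11.4 and 10.9 in the first and second arrays without LPS and 7.05 and 7.29 in the second and the third array with LPS. Their mean was 5.33 to 5.43 in the remaining ELL2 cko arrays, against 5.19 to 5.66 in WT cells. The mean of 10 neutrophil markers was 11.8 and 11.4 in those first and second arrays without LPS and at most 4.97 elsewhere, and the mean of 7 B cell markers was 14.9 in both, against 16.1 to 16.4 in the other arrays without LPS. In the same 2 arrays 8 NK cell markers averaged 8.81 and 8.82, and 9 monocyte and macrophage markers 8.85 in both. The latter averaged 6.35 and 6.39 in the second and the third ELL2 cko array with LPS, against 5.18 to 5.52 in the other arrays with LPS. The main results that involve ELL2 cko cells are also given without these 4 arrays, which leaves 1 ELL2 cko array with LPS and 2 without. In cells measured in bulk, fewer cells of a type and less RNA per cell cannot be told apart.

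With LPS, WT cells had higher values of Srsf9, Srsf4, Hnrnpul1, Hnrnpab, Hnrnpa1 and Hnrnpc, and lower values of Srsf5, Srsf2, Srsf10, Hnrnpu, Hnrnpm, Hnrnph1, Hnrnpul2, Hnrnpk and Hnrnph3. These 15 of the 31 members were called, against 24.5% of all genes. The 6 higher calls compare with 13.9% of all genes called higher, and the 9 lower calls with 10.6% called lower. The median LPS difference of the members was -0.35, against 0.03 for all genes. In 17 members the WT groups did not overlap, 5 of them higher and 12 lower with LPS, against 28% of all genes. The members ranged from -1.58 for Srsf5 to 2.25 for Srsf9, and 5 of 11 Srsf genes and 10 of 20 Hnrnp genes were called.

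**Figure D1:**
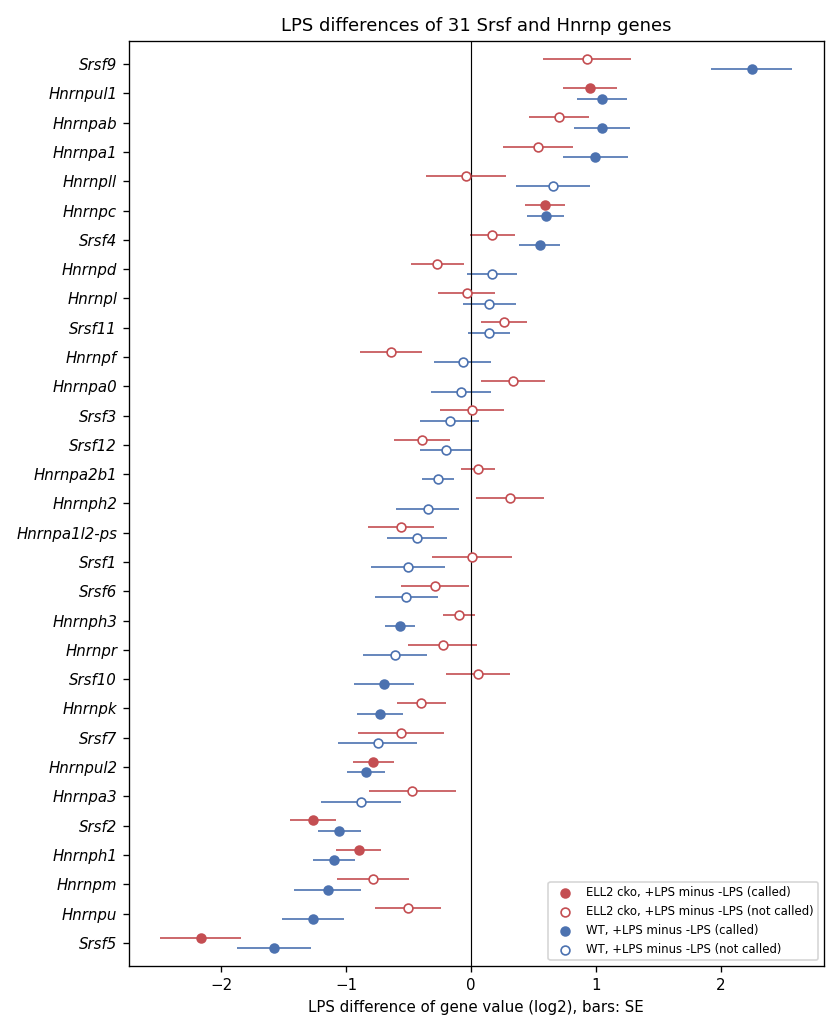
LPS difference (with minus without LPS) of the log2 gene value of the 31 Srsf and Hnrnp genes, with ELL2 cko in red above WT in blue for each gene; bars are SE, and filled points were called. Srsf9 is highest in WT at 2.25, and Srsf5 is lowest in both genotypes, at -2.16 in ELL2 cko and -1.58 in WT cells.

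Among the SR proteins, Srsf9, a small member of the family with a short arginine-serine tail, had the largest rise of the 31. Its value in WT cells was 9.64, 9.34, 10.63 and 9.37 with LPS, against 7.10, 7.22, 7.85 and 7.83 without. All 4 WT arrays with LPS lay at least 1 log2 unit above all WT arrays without it, and the difference was 2.25 ± 0.32 (SE, adjusted p = 0.000125). The rise was also called from its junctions (1.54, adjusted p = 0.0028) and from the mean of its exon regions, where it was 1.12 (adjusted p = 0.0011). Srsf4, a long SR protein, had 7.85, 7.998, 7.80 and 8.18 in WT cells with LPS, against 7.35, 7.41, 7.43 and 7.44 without. Its difference of 0.55 ± 0.16 (adjusted p = 0.024) came without overlap but was lost without the first or the second WT array without LPS or the fourth with LPS, and it was 0.11 by the mean of exon regions (adjusted p = 0.60) and 0.37 by junctions (adjusted p = 0.46).

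Srsf5 and Srsf2 (SC35) were lower with LPS in both genotypes. Srsf5 was 12.62, 12.41, 12.31 and 11.90 in WT cells with LPS, against 13.86, 13.90, 13.35 and 14.42 without. ELL2 cko cells had 11.92, 11.27 and 11.01 with LPS, against 12.94, 13.21, 14.25 and 13.86 without. No array with LPS reached the lowest array without LPS, and the differences were -2.16 ± 0.32 in ELL2 cko cells (adjusted p = 0.000658) and -1.58 ± 0.30 in WT cells (adjusted p = 0.0012). Srsf2 was 13.16, 13.33, 13.57 and 13.48 in WT cells with LPS, against 14.45, 14.34, 14.45 and 14.51 without, a difference of -1.05 ± 0.17 (adjusted p = 0.000345). ELL2 cko cells had 12.81, 12.99 and 13.17 with LPS, against 14.10, 13.76, 14.65 and 14.51 without, a difference of -1.27 ± 0.19 (adjusted p = 0.000576). Without the 4 arrays the ELL2 cko differences were -2.13 for Srsf5 (adjusted p = 0.013) and -1.77 for Srsf2 (adjusted p = 0.0012).

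For both genes the size of the fall depended on how rows were summarised. By the mean of exon regions in place of the median, Srsf5 was lower by -1.07 in ELL2 cko cells (adjusted p = 0.058) and by -0.72 in WT cells (adjusted p = 0.11). Likewise Srsf2 was lower by -0.47 in ELL2 cko cells (adjusted p = 0.16) and by -0.39 in WT cells (adjusted p = 0.15). Srsf10, an SR protein that represses splicing when dephosphorylated, was -0.70 ± 0.24 in WT cells (adjusted p = 0.045), a call lost without the first, the second or the fourth WT array without LPS or the first, the third or the fourth with LPS, and likewise without some ELL2 cko arrays. The Srsf10 call was also lost with the replicate number as a block (adjusted p = 0.060) and with trend and robust eBayes (adjusted p = 0.057). The other 6 Srsf genes were not called in WT cells. Srsf3, the smallest SR protein and a factor in mRNA export, was 12.32, 12.84, 12.47 and 13.44 with LPS, against 12.77, 12.88, 13.01 and 13.11 without. These groups overlapped (-0.17 ± 0.24, adjusted p = 0.68), although the mean of its exon regions was -0.63 (adjusted p = 0.0028). The founding member Srsf1 and the export adaptor Srsf7 had differences of -0.50 ± 0.30 and -0.75 ± 0.32. Srsf6 was -0.52 ± 0.25, Srsf11 was 0.14 ± 0.17, and Srsf12 lay below the median gene in all 4 groups.

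The promoter stretches of Srsf9 and Srsf5 are shown because these were the SR genes with the largest rise and the largest fall. They are the 250 bases before the start used in RefSeq's promoter table on GRCm38.p6, and capitals mark the letters GGGCGG (a GC box) on either strand. Srsf9 lies at chr5:115326927-115327176 and Srsf5 at chr12:80945249-80945498, both on the plus strand, and the last 14 and 4 bases fall inside the gene's whole RefSeq span, which begins a little earlier than that start.
Srsf9: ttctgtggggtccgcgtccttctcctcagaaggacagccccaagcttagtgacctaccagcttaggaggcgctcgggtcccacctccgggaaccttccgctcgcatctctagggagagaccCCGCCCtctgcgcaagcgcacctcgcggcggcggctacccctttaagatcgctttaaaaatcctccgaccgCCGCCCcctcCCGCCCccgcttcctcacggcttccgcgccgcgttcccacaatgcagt
Srsf5: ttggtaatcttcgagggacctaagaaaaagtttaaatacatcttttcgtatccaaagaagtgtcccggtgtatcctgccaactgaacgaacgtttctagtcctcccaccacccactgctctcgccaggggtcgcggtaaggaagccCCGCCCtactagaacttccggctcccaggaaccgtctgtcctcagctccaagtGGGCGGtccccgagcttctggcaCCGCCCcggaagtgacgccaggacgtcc
GGGCGG occurred 3 times in each stretch. Neither CCAAT nor the E-box CACGTG, which reads the same on both strands, occurred in either. Promoters of 28 members were found, 40 in all; Hnrnpa1l2-ps, Hnrnpll and Hnrnpul2 had no entry. Of these 40 promoters, 32 held GGGCGG, 20 held CCAAT and 3 held CACGTG, against 32.7%, 33.8% and 6.02% of all 32851 promoters of the same length. CCAAT was found for 4 of the 6 members called higher and for 4 of the 8 matched members called lower in WT cells with LPS, and CACGTG for none of either. GGGCGG was found for 5 of the 6 called higher and for 6 of the 8 called lower. Some members have several promoters, and by gene 23 of the 28 held GGGCGG, 16 CCAAT and 3 CACGTG.

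Among the hnRNPs, the paralogues Hnrnpul1 and Hnrnpul2, which resemble hnRNP U, moved in opposite directions in both genotypes. Hnrnpul1 was 13.71, 13.17 and 12.87 in ELL2 cko cells with LPS, against 11.95, 12.22, 12.55 and 12.48 without. In WT cells it was 13.26, 13.76, 13.34 and 13.49 with LPS, against 12.51, 12.13, 12.24 and 12.77 without. The groups did not overlap in either genotype, with rises of 0.95 ± 0.22 in ELL2 cko cells (adjusted p = 0.012) and 1.05 ± 0.20 in WT cells (adjusted p = 0.0013). Hnrnpul2 was 12.09, 12.34 and 12.70 in ELL2 cko cells with LPS, against 13.11, 13.43, 12.98 and 13.10 without. In WT cells it was 12.17, 11.87, 12.29 and 11.89 with LPS, against 12.72, 12.95, 12.90 and 13.02 without. It fell by 0.78 ± 0.16 in ELL2 cko cells (adjusted p = 0.0070) and by 0.84 ± 0.15 in WT cells (adjusted p = 0.000759), again without overlap.

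These 2 genes were also the only members, with Srsf9 in WT cells, whose change was called by the median of exon regions, by their mean and by the junctions. By junctions Hnrnpul1 rose by 1.17 in ELL2 cko cells (adjusted p = 0.012) and by 1.47 in WT cells (adjusted p = 0.0003). Hnrnpul2 fell by 0.71 by junctions in ELL2 cko cells (adjusted p = 0.045) and by 0.75 in WT cells (adjusted p = 0.0085). Without the 4 arrays with T cell markers the ELL2 cko differences were 1.195 for Hnrnpul1 (adjusted p = 0.040) and -0.95 for Hnrnpul2 (adjusted p = 0.039). The call of Hnrnpul1 in ELL2 cko cells was lost without the first ELL2 cko array with LPS (adjusted p = 0.051). This set of 3 genes was picked after its values were seen.

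Of the A and B group, Hnrnpab, which binds RNA and single-stranded DNA, was 14.09, 14.22, 13.46 and 14.81 in WT cells with LPS, against 12.85, 13.02, 13.20 and 13.33 without (1.05 ± 0.22, adjusted p = 0.0028). Its junctions gave 0.80 in WT cells (adjusted p = 0.026) and 1.08 in ELL2 cko cells (adjusted p = 0.019), where its exon-region value differed by 0.71 ± 0.24 (adjusted p = 0.083; 0.37 with adjusted p = 0.77 without the 4 arrays). The mean of exon regions gave 0.38 for Hnrnpab in WT cells (adjusted p = 0.069). Hnrnpa1, a broad splicing repressor, rested on 1 exon region, since 32 further rows also match other loci. It was 10.55, 10.09, 9.81 and 10.18 in WT cells with LPS, against 8.61, 9.45, 8.88 and 9.70 without (1.00 ± 0.26, adjusted p = 0.011), and the groups did not overlap. Hnrnpc, which binds poly-U tracts of nascent RNA, rose by 0.59 ± 0.16 in ELL2 cko cells (adjusted p = 0.029) and by 0.60 ± 0.15 in WT cells (adjusted p = 0.0076). In WT cells 1 array of each group overlapped, the mean of exon regions gave 0.14 (adjusted p = 0.42), and without the 4 arrays the ELL2 cko difference was 0.42 (adjusted p = 0.57). The ELL2 cko call was also lost without the first, the second or the third ELL2 cko array without LPS or the second or the third with LPS.

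Of the H and F group, which bind runs of G, Hnrnph1 was lower with LPS in both genotypes. It was 13.56, 13.41 and 13.20 in ELL2 cko cells with LPS, against 13.99, 14.14, 14.65 and 14.37 without. In WT cells it was 13.39, 13.50, 13.48 and 14.02 with LPS, against 14.49, 14.69, 14.84 and 14.76 without. The differences were -0.90 ± 0.18 in ELL2 cko cells (adjusted p = 0.0057; -0.95 with adjusted p = 0.088 without the 4 arrays) and -1.10 ± 0.17 in WT cells (adjusted p = 0.000208). Its paralogue Hnrnph3 fell by 0.57 ± 0.12 in WT cells (adjusted p = 0.0027). Hnrnpf was 10.14, 10.06, 10.53 and 10.47 in WT cells with LPS, against 9.60, 10.70, 10.53 and 10.64 without, and the groups overlapped (-0.07 ± 0.23, adjusted p = 0.89). Hnrnpf in ELL2 cko cells was 10.14, 10.18 and 10.22 with LPS, against 10.32, 10.87, 11.10 and 10.99 without, which did not overlap but was not called (-0.64 ± 0.25, adjusted p = 0.13).

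Hnrnpu, Hnrnpm and Hnrnpk were called lower in WT cells by their exon regions and not by their junctions. The same held for Hnrnph1 (-0.30 by junctions, adjusted p = 0.40), Hnrnph3 (-0.40, adjusted p = 0.42) and Srsf10 (-0.50, adjusted p = 0.19). It also held for Srsf5 (0.08, adjusted p = 0.86). Hnrnpu, a scaffold of the nuclear matrix also called SAF-A, was 10.69, 11.97, 10.82 and 10.97 with LPS, against 12.45, 12.43, 12.36 and 12.27 without (-1.27 ± 0.25, adjusted p = 0.0014). By the mean of its exon regions the Hnrnpu difference was -0.60 (adjusted p = 0.000338). Hnrnpm was 10.48, 9.68, 10.60 and 10.17 with LPS, against 11.61, 11.46, 11.23 and 11.22 without (-1.15 ± 0.27, adjusted p = 0.0054). Hnrnpk, a binder of C-rich RNA, fell by 0.73 ± 0.18 (adjusted p = 0.0081). The ELL2 cko differences of Hnrnpu, Hnrnpm and Hnrnpk were -0.51 ± 0.27, -0.79 ± 0.29 and -0.40 ± 0.20, and none was called. Without the 4 arrays they were -0.05, -0.07 and -0.15. By junctions Hnrnpk was called higher in ELL2 cko cells (0.85, adjusted p = 0.043). Hnrnpl, the paralogue of Hnrnpll and a regulator of Ptprc exons in lymphocytes, was 11.95, 12.31, 12.18 and 12.66 in WT cells with LPS, against 12.20, 11.95, 11.99 and 12.38 without. These values overlapped, with 0.15 ± 0.21 (adjusted p = 0.70), and in ELL2 cko cells the difference was -0.03 ± 0.23.

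**Figure D2:**
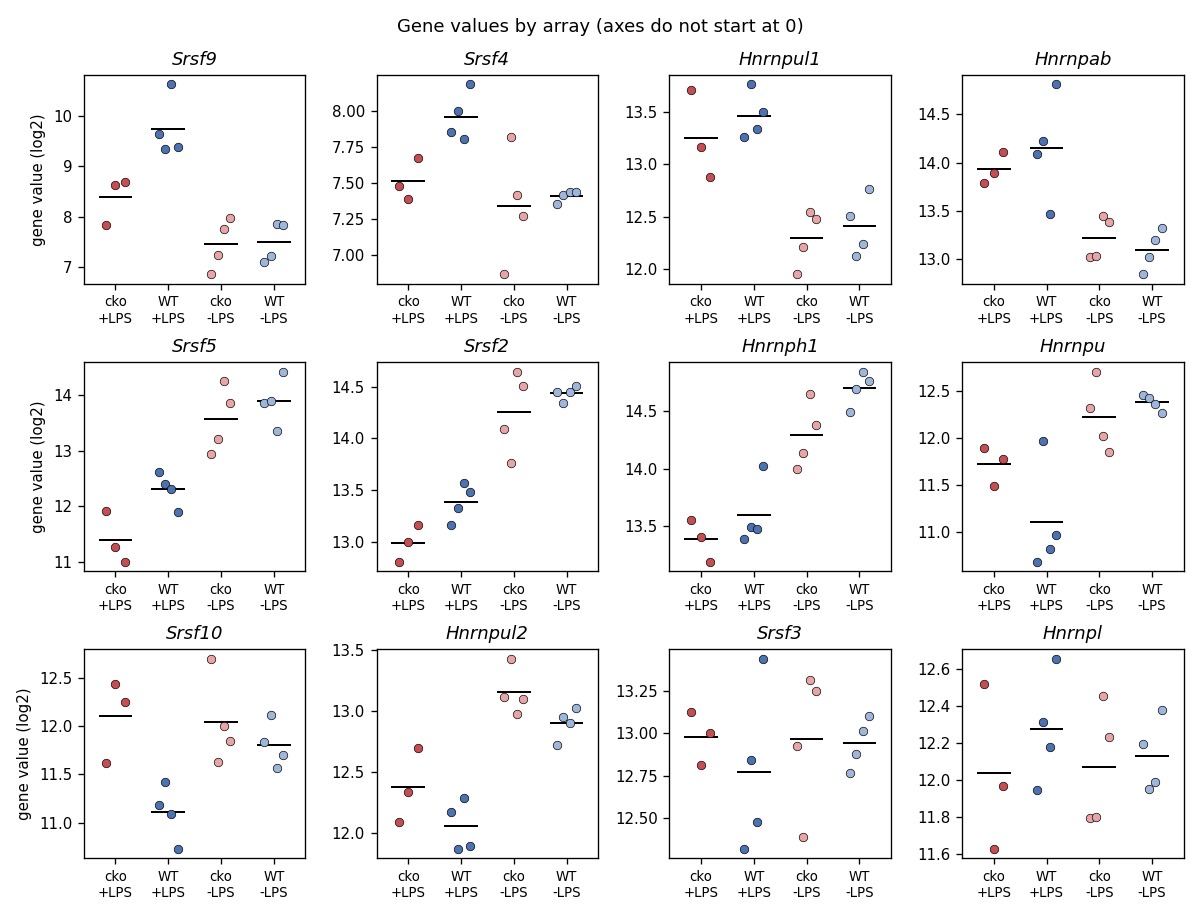
Log2 gene value of 12 members in each array of ELL2 cko with LPS, WT with LPS, ELL2 cko without LPS and WT without LPS; each point is an array and each line a group mean, on axes that differ between genes. Srsf9 and Srsf5 separate the WT groups with and without LPS, whereas Srsf3 and Hnrnpl overlap in all 4 groups.

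In ELL2 cko cells 6 of 31 members were called with LPS, 2 higher and 4 lower, against 10.4% of all genes called, 6.37% higher and 3.99% lower. They were Hnrnpul1 and Hnrnpc, higher, and Srsf5, Srsf2, Hnrnph1 and Hnrnpul2, lower, each also called in the same direction in WT cells. The groups did not overlap for 3 members higher and 5 lower, against 19.5% of all genes, and the median difference was -0.10, against 0.04 for all genes. Without the 4 arrays 4 of these 6 calls remained, the exceptions being Hnrnpc and Hnrnph1. The test of the difference between the LPS changes of the genotypes called 0 members in limma, against 1.38% of all genes. Its unadjusted p was under 0.05 for 4007 of all 31265 genes and for 3 members. These were Srsf9 (-1.32 ± 0.48, adjusted p = 0.23), Hnrnph3 (0.47 ± 0.18, adjusted p = 0.25) and Srsf10 (0.76 ± 0.35, adjusted p = 0.38), followed by Hnrnpu (0.76 ± 0.36, adjusted p = 0.40). These differences were, without the 4 arrays, -2.28 (adjusted p = 0.30), 0.24 (adjusted p = 0.80), 0.39 (adjusted p = 0.76) and 1.22 (adjusted p = 0.44). That fewer members were called in ELL2 cko than in WT cells was thus not shown to be a difference between the genotypes.

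Junction values differed from exon-region values for part of the falls. Junction probes span a splice, so they read spliced RNA, while an exon region also reads the same exon in unspliced or otherwise spliced RNA. Taking the median of a gene's junctions as its value, 27 members could be tested. In WT cells with LPS 6 were called higher and 2 lower (19.8% of all such genes called), and in ELL2 cko cells 4 higher and 2 lower (6.24%). Higher by junctions in WT cells were Hnrnpul1, Srsf9, Hnrnpab, Srsf11 (0.78, adjusted p = 0.014), Hnrnph2 (0.79, adjusted p = 0.030) and Hnrnpd (0.75, adjusted p = 0.028); Srsf11, Hnrnph2 and Hnrnpd were not called by exon regions. Srsf2 and Hnrnpul2 were the 2 called lower, with Srsf2 at -1.72 in ELL2 cko cells (adjusted p = 0.000799) and -1.17 in WT cells (adjusted p = 0.0025). The Srsf2 junction value was low, at 7.04 to 7.76 in WT cells with LPS, against 8.23 to 8.81 without.

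Srsf5 had the largest gap between both kinds of row. Its junction value was 14.93, 14.65 and 14.67 in ELL2 cko cells with LPS, against 14.66, 14.73, 15.11 and 14.59 without. In WT cells it was 15.61, 14.85, 14.74 and 15.50 with LPS, against 15.08, 15.26, 14.84 and 15.20 without. With and without LPS overlapped in both genotypes (-0.02 ± 0.24 in ELL2 cko and 0.08 ± 0.22 in WT cells), so that the sign in WT cells was opposite to that of the exon regions. The exon-region value relative to the junction value differed by -2.14 ± 0.32 in ELL2 cko cells (adjusted p = 0.0018) and by -1.66 ± 0.30 in WT cells (adjusted p = 0.0013). It stayed called in each of 15 fits that left out 1 array, and without the 4 arrays the ELL2 cko value was -2.21 (adjusted p = 0.080).

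The same test, made on 25 members after the row values had been seen, called 6 lower and 1 higher in WT cells, with 12.1% of all 9380 genes tested called lower. Beside Srsf5 the lower ones were Hnrnph2 (-1.13, adjusted p = 0.0071), Hnrnpu (-1.09, adjusted p = 0.028), Hnrnpk (-1.03, adjusted p = 0.022), Hnrnpm (-1.01, adjusted p = 0.031) and Hnrnph1 (-0.80, adjusted p = 0.036). The higher one was Srsf9 (0.71, adjusted p = 0.036). Srsf5 and Hnrnpk (-1.24, adjusted p = 0.048) were called lower in ELL2 cko cells, against 1.36% of all genes. The shift was general: its median was -0.20 in the members and -0.23 in all genes in WT cells, and -0.28 and -0.17 in ELL2 cko cells. The WT count of 6 was 2 without the third or the fourth WT array without LPS or the first with LPS, and 3 without the second WT array without LPS or the third or the fourth with LPS. The ELL2 cko count of 2 was 1 when any of 12 arrays was left out.

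**Figure D3:**
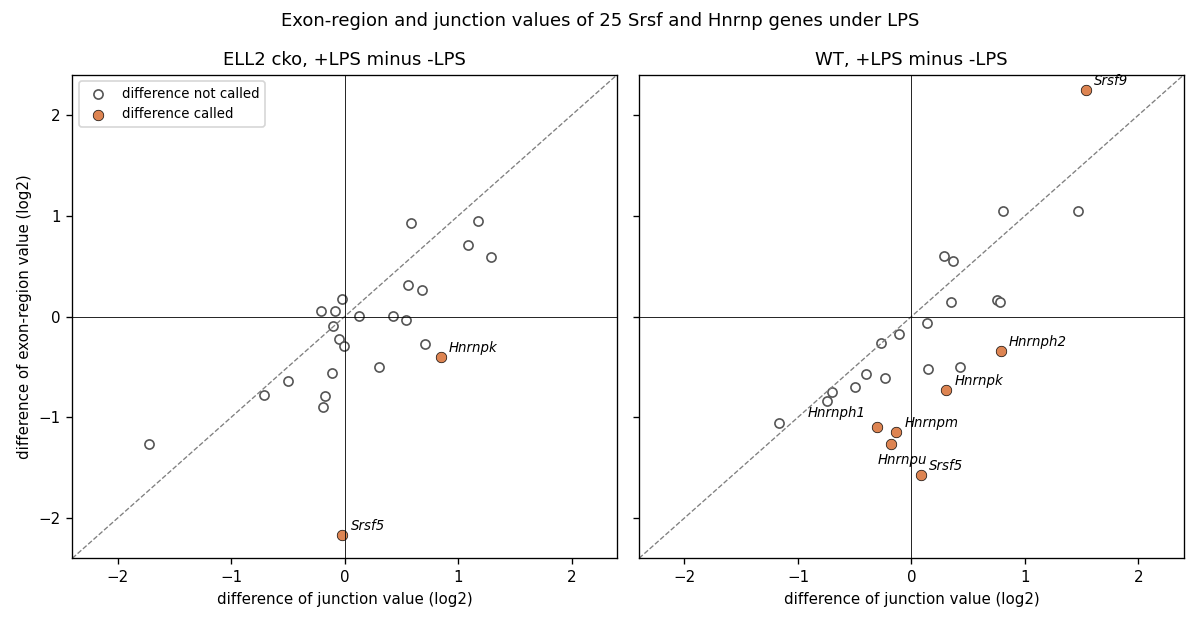
LPS difference of the exon-region value (vertical, log2) against that of the junction value (horizontal, log2) for 25 members in ELL2 cko cells (left) and WT cells (right); the dashed line marks equal differences, and filled points have a called difference between both. Srsf5 lies near 0 by junctions and at -2.16 and -1.58 by exon regions in ELL2 cko and WT cells.

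The rows of Srsf5 differed among themselves, as seen when they were split at a level of 15, a split made after the values were seen. Of its 20 exon regions, 8 had a mean of at least 15 in WT cells without LPS, and their median LPS difference was -0.44 in ELL2 cko and -0.27 in WT cells. The other 12 had median differences of -1.52 in ELL2 cko and -1.17 in WT cells, and 9 of them were lower by at least 1 in each genotype. None of the 8 bright regions and none of the 7 bright junctions was lower by 1. Brightness did not divide Hnrnph1 as sharply: its 18 regions of at least 15 had a median difference of -0.79 in WT cells and its 22 dimmer regions -1.31. The 8 Hnrnph1 junctions of at least 15 had -0.66 in WT cells and the 14 dimmer junctions -0.30. In Srsf2 the 6 regions of at least 15 had median differences of -0.15 in ELL2 cko and -0.16 in WT cells. Its 8 dimmer regions had -0.60 in ELL2 cko and -0.35 in WT cells. The positions of rows within the genes are not used here, so no row is assigned to a named exon.

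**Figure D4:**
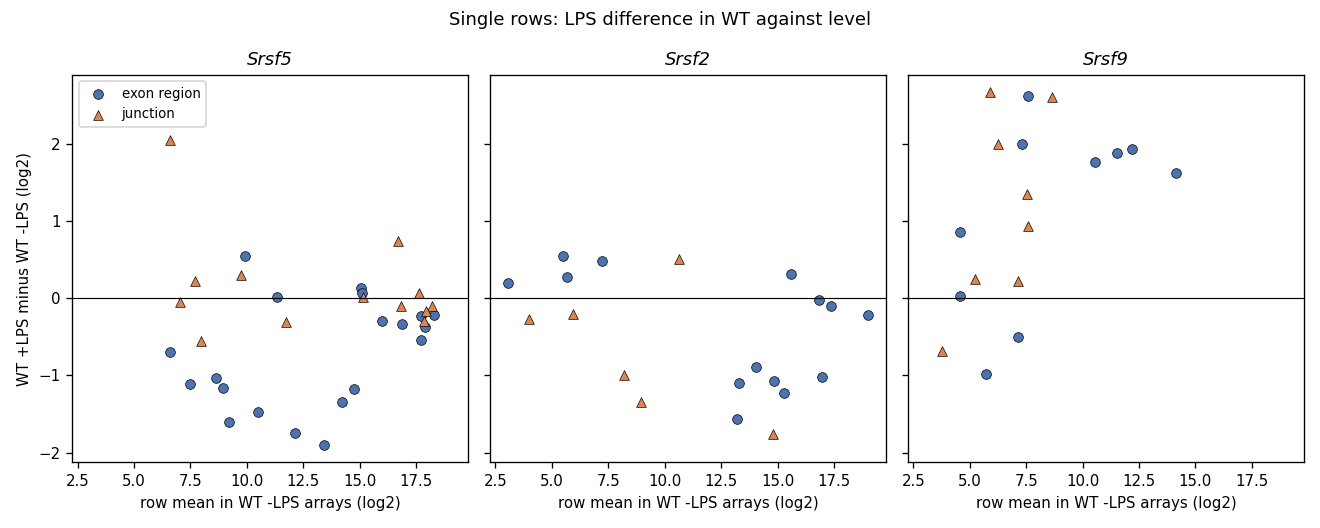
LPS difference in WT cells (with minus without LPS, log2) of each exon region (circles) and junction (triangles) of Srsf5, Srsf2 and Srsf9 against its mean in WT arrays without LPS (log2). The Srsf5 exon regions of at least 15 lie between -0.55 and 0.13, and the lowest of the dimmer ones is at -1.90.

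The splicing index, a row's value minus its gene's value, was tested for 843 rows of 28 members against all rows passing the same cut. This cut was low: a row mean of at least 4.15, in genes above the median gene, which lay at 5.06 to 5.13 by group. Medians of the negative control rows were 6.07 to 6.93 over the arrays, and those of the background rows 3.08 to 3.22 by group. Few negative controls exceeded 10.63 to 11.95, depending on the array. Passing the cut thus does not show that a row was expressed. With LPS in WT cells 153 rows were called, or 18.1%, against 14.8% of all rows tested; 104 were higher and 49 lower, in 25 genes. Among ELL2 cko cells 34 were called, or 4.03% against 1.97%, with 28 higher and 6 lower in 11 genes. Srsf5 had 20 of its 33 rows called in WT and 12 in ELL2 cko cells, each with a higher index, while the gene value was lower with LPS. The index subtracts the gene value, so a row that stays level gains a higher index when the gene value is lower. Hnrnpu followed with 16 of 54 and Hnrnph1 with 15 of 58 in WT cells. In Srsf9 7 of 17 rows were called, each with a lower index.

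Some single rows moved against their gene or well beyond it. A junction of Hnrnpa2b1, an A/B-type repressor (JUC0600009322), was 15.37, 14.22, 15.29 and 15.68 in WT cells with LPS, against 12.03, 11.51, 11.79 and 13.12 without. It rose clear of all arrays without LPS while its gene differed by -0.26, for an index difference of 3.29 ± 0.35 (adjusted p = 4.5e-05). A junction of Hnrnpm (JUC1700009336) was 11.80, 10.93, 12.29 and 12.35 with LPS, against 9.09, 10.34, 9.78 and 9.54 without (index 3.31 ± 0.37, adjusted p = 7.0e-05). Junction JUC0300013142 of Srsf11 was 15.39, 14.46, 15.52 and 14.78 with LPS, against 10.29, 12.17, 12.01 and 12.69 without (index 3.10 ± 0.67, adjusted p = 0.0062). All 3 junctions separated the WT groups.

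The largest index in WT cells belonged to a junction of Srsf5, JUC1200003017. It was 10.27, 7.70, 9.14 and 7.37 with LPS, against 6.68, 6.24, 6.11 and 7.28 without (index 3.62 ± 0.47, adjusted p = 0.00021). Its values without LPS lay near the medians of the negative controls. In ELL2 cko cells it was 6.83, 5.37 and 6.02 with LPS, against 7.50, 6.97, 7.17 and 7.79 without, the opposite direction, and the difference of the LPS changes was not called for any member row. Exon regions that were lower in WT cells while the gene was higher were PSR1100024572 of Hnrnpab (index -2.81), PSR0500010827 of Srsf9 (index -3.22) and PSR0500010823 of Srsf9 (index -2.75). The WT means of PSR0500010827 were 4.76 with and 5.74 without LPS, below the medians of the negative controls. Those of PSR0500010823, at 6.63 and 7.13, were near these medians, and those of PSR1100024572, at 10.41 and 12.16, well above. An exon region of Hnrnpk, PSR1300013393, fell further than its gene, by 3.66 against 0.73.

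In ELL2 cko cells 6 of the 8 largest called rows were of Srsf5. These 6 rows themselves differed by only -0.32 to 0.43, while the gene value differed by -2.16, so their index mainly repeats its fall. Among them JUC1200003013 was the median junction, so its index of 2.14 is the exon-region minus junction result with the sign turned. The other 2 of the 8 were a junction of Srsf3 (JUC1700002365), at 10.63, 11.92 and 11.93 with LPS against 9.53, 8.35, 9.998 and 10.13 without (index 1.98 ± 0.44, adjusted p = 0.034), and a junction of Hnrnpk. That junction, JUC1300006928, was 11.39, 10.84 and 10.53 with LPS, against 8.82, 9.77, 9.71 and 9.36 without (index 1.91 ± 0.29, adjusted p = 0.0050). Without the 4 arrays only 2 ELL2 cko rows were called. The count of 34 was 10 without the third and 14 without the second ELL2 cko array with LPS, and 20 and 19 without the third and the fourth ELL2 cko array without LPS. The WT count of 153 was 100, 99 and 96 without the second WT array without LPS and the third and the fourth with LPS.

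Without LPS 0 of 31 members were called between ELL2 cko and WT cells in limma, against 0.0128% of all genes, and 0 of 843 rows, against 0% of all rows. Differences ranged from -0.69 to 0.45, with a median of -0.07, and in no member did the groups separate, against 4.8% of all genes. Unadjusted p-values were under 0.05 for 2820 of all 31265 genes and for 3 members. These members were Hnrnph1 (-0.41 ± 0.17, adjusted p = 0.50), Srsf1 (-0.69 ± 0.30, adjusted p = 0.51) and Hnrnph2 (-0.58 ± 0.25, adjusted p = 0.52), followed by Hnrnpf (0.45 ± 0.23, adjusted p = 0.60). Srsf1 was 10.57 and 10.68 in the 2 ELL2 cko arrays with T cell and neutrophil markers and 12.01 and 11.78 in the other 2, against 11.78, 11.87, 12.04 and 12.12 in WT cells. Hnrnph2 was 7.74 and 8.02 in those 2 arrays and 8.97 and 8.83 in the others, against 8.65 to 9.18 in WT cells. Both genes were low in the 2 arrays with markers of other cells and inside the WT range in the other 2; the part of those cells in the difference was not tested.

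With LPS 2 of 31 members were called between ELL2 cko and WT cells, 1 higher and 1 lower, against 4.66% of all genes called, 1.36% higher and 3.3% lower. Groups did not overlap for 6 members, 4 higher and 2 lower in ELL2 cko cells, against 13.9% of all genes. Srsf9 was 7.83, 8.62 and 8.70 in ELL2 cko cells, against 9.64, 9.34, 10.63 and 9.37 in WT cells. All ELL2 cko arrays lay below all WT arrays (-1.36 ± 0.35, adjusted p = 0.039). Srsf10 was 11.62, 12.43 and 12.25 in ELL2 cko cells, against 11.18, 11.42, 11.09 and 10.73 in WT cells (0.99 ± 0.26, adjusted p = 0.040). Here the ELL2 cko arrays lay above all WT arrays, and the array without T cell markers, at 11.62, was the lowest of the 3.

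After these, the smallest p-values were those of Hnrnpa2b1 (0.41 ± 0.14, adjusted p = 0.12) and Hnrnph3 (0.38 ± 0.13, adjusted p = 0.13), both higher in all ELL2 cko arrays than in any WT array; without the 4 arrays they were 0.28 (adjusted p = 0.65) and 0.24 (adjusted p = 0.71). Hnrnph1 (-0.21 ± 0.18), Hnrnpl (-0.24 ± 0.23), Hnrnpf (-0.12 ± 0.25) and Srsf3 (0.21 ± 0.26) overlapped between the genotypes.

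The calls of Srsf9 and Srsf10 depended on single arrays. In Srsf9 the array without T cell markers was the lowest, at 7.83, and without the 4 arrays the differences were -1.92 for Srsf9 (adjusted p = 0.15) and 0.51 for Srsf10 (adjusted p = 0.53). The count of 2 was 0 without the third or the fourth WT array without LPS, the first or the third WT array with LPS, or the second or the third ELL2 cko array with LPS. It was 1 without the first or the second WT array without LPS, the fourth WT array with LPS, the third ELL2 cko array without LPS or the first with LPS. The adjusted p reached 0.12 for Srsf9 and 0.20 for Srsf10. Junction values gave -0.85 for Srsf9 (adjusted p = 0.24) and 0.17 for Srsf10 (adjusted p = 0.85), and means of exon regions -0.52 (adjusted p = 0.23) and 0.30 (adjusted p = 0.18). Xist, which is expressed in female cells, was 16.5 in all 3 ELL2 cko arrays with LPS, against 16.1, 4.80, 5.38 and 15.9 in WT arrays with LPS. Without LPS it was 17.0, 16.9, 5.28 and 17.2 in ELL2 cko arrays, against 17.0, 17.3, 4.97 and 5.14 in WT arrays. Each comparison, also those of LPS, thus held arrays with high and with low Xist. The part of T cell content in the Srsf9 and Srsf10 differences was not tested, nor was the part of sex in any comparison.

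Of the 2 rows called between genotypes with LPS, against 0.283% of all rows, 1 was the Srsf9 region PSR0500010823, which was 6.58, 6.54 and 7.47 in ELL2 cko cells, against 6.80, 6.54, 7.16 and 6.00 in WT cells. These values overlapped, so its index of 1.60 ± 0.31 (adjusted p = 0.048) combined a row difference of 0.24 with a gene difference of -1.36. The other was the Srsf4 region PSR0400012364, at 7.48, 7.05 and 7.11 in ELL2 cko cells, against 6.39, 6.69, 5.82 and 6.13 in WT cells, with no overlap and an index of 1.40 ± 0.24 (adjusted p = 0.029). Both rows lay close to the medians of the negative controls, which were 6.07 to 6.93 over the arrays. Without the 4 arrays no row was called. The count was 16 without the first ELL2 cko array with LPS, the 1 without T cell markers, and 0 without the second or the third. It was also 0 without the second WT array without LPS or the first, the third or the fourth with LPS. It was 1 without the third or the fourth WT array or the first, the third or the fourth ELL2 cko array without LPS. The difference of the LPS changes called 0 of 843 rows, against 0% of all rows.

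Hnrnpll needs a separate reading. Only 4 exon regions carry its symbol alone, of which 3 lay between 2.85 and 6.82 and 1 between 11.53 and 12.21 over all arrays, and the resulting value was 4.34 in ELL2 cko and 4.94 in WT cells with LPS. A further 24 exon regions and 16 junctions carry its current and an older symbol together, and adding them was decided after the values were seen. With them Hnrnpll was 7.69, 6.24, 7.36 and 5.92 in WT cells with LPS, against 4.63, 4.59, 4.49 and 4.59 without, with no overlap (2.22 ± 0.44, adjusted p = 0.0016). In ELL2 cko cells it was 5.43, 5.79 and 6.33 with LPS, against 6.48, 6.51, 4.70 and 5.08 without (0.16 ± 0.47, adjusted p = 0.89). The WT values without LPS lay below the medians of the negative controls, which were 6.07 to 6.93 over the arrays. WT values with LPS spanned that range, and those of ELL2 cko cells lay within or below it.

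The mean of 7 B cell markers was 14.56, 14.68 and 14.74 in ELL2 cko arrays with LPS, against 12.45, 14.15, 12.56 and 14.10 in WT arrays with LPS. The WT arrays with the lower B cell means, the first and the third, were those with the higher Hnrnpll values. Of the 7 markers, Cd22 was 8.11 and 10.36 in these arrays, against 15.08 and 15.07 in the second and the fourth. Cd79b, Ms4a1, Cd74, Blk and Cr2 were likewise lower in both the first and the third array than in the second and the fourth. Only Cd79a, at 15.12 and 14.79 against 14.65 and 15.30, did not divide the arrays in this way. What this marker difference has to do with the Hnrnpll values was not tested. The 2 higher ELL2 cko arrays without LPS, at 6.48 and 6.51, were those with T cell markers. The Hnrnpll LPS difference in ELL2 cko cells was 0.54 without the 4 arrays (adjusted p = 0.77). Between genotypes with LPS Hnrnpll differed by -0.95 ± 0.47 (adjusted p = 0.33), and the difference of the LPS changes was -2.07 ± 0.65 (adjusted p = 0.15; -1.69 without the 4 arrays, adjusted p = 0.46). No difference between genotypes was called for it. Hnrnpdl, an AU-rich element binder whose rows all carry both symbols and which is not among the 31, fell by 1.23 ± 0.26 in WT cells with LPS (adjusted p = 0.0024) and differed by -0.66 ± 0.28 in ELL2 cko cells (adjusted p = 0.16; -1.49 with adjusted p = 0.060 without the 4 arrays).

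**Figure D5:**
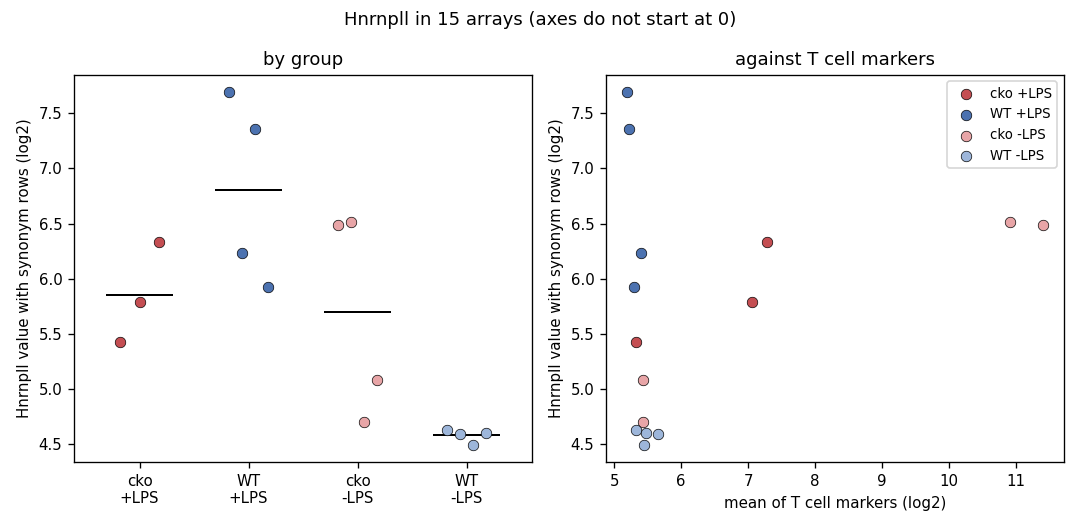
Log2 value of Hnrnpll, including rows with an older symbol, in each array by group (left; lines are group means) and against the mean of 13 T cell markers (right). WT arrays with LPS lie between 5.92 and 7.69, and the ELL2 cko arrays without LPS at 6.48 and 6.51 have T cell marker means of 11.4 and 10.9.

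Other genes of the pathway were counted in 4 lists, to be read against 13.9% of all genes called higher and 10.6% called lower with LPS in WT cells. Of 14 kinases and import factors of SR proteins, 1 was higher and 4 lower with LPS in WT cells: Srpk1, a kinase of SR proteins, rose by 0.46, and Srpk3 (-4.22, adjusted p = 3.6e-05) and Clk1 (-1.78, adjusted p = 6.1e-05), likewise kinases, were lowest. Of 24 SR-like factors 2 were higher and 8 lower, with Scaf4 at -1.28, Son, a speckle scaffold, at -1.22 and Luc7l3 at -1.19. Of 34 other hnRNP-type or RNA-binding regulators 5 were higher and 10 lower, among them Mbnl2 at 3.06, Rbmx (hnRNP G) at -1.90 and Celf2 at -1.65. Of 9 measured genes of nonsense-mediated decay 1 was higher, Rbm8a of the exon junction complex at 1.15, and 4 lower, among them the kinase Smg1 at -1.94 and Smg9 at -0.82. The median LPS differences of the lists were -0.19, -0.31, -0.11 and -0.29, against 0.03 for all genes.

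With LPS in ELL2 cko cells the same lists had 0 higher and 1 lower, 0 and 1, 1 and 3, and 1 and 2, against 6.37% of all genes called higher and 3.99% lower. They included Clk1 at -1.39 (adjusted p = 0.0030), Son at -0.81, Rbmx at -1.32 (adjusted p = 0.000129), Pcbp2 at 0.80, Smg1 at -0.79 and Rbm8a at 0.78. Of these 9 calls 2 remained without the 4 arrays, Son (-1.12, adjusted p = 0.042) and Rbmx (-1.40, adjusted p = 0.0077), while Clk1 was -0.79 (adjusted p = 0.25), Pcbp2 0.55 (adjusted p = 0.45), Smg1 -1.04 (adjusted p = 0.10) and Rbm8a 0.90 (adjusted p = 0.21). Between ELL2 cko and WT cells with LPS, Mbnl2 (-2.24 ± 0.36, adjusted p = 0.0027), Clk3 (-0.64 ± 0.16, adjusted p = 0.040) and Smg1 (0.80 ± 0.18, adjusted p = 0.019) were called, against 4.66% of all genes. None of these 3 was called without the 4 arrays: Mbnl2 was -1.79 (adjusted p = 0.24), Clk3 -0.51 (adjusted p = 0.48) and Smg1 0.58 (adjusted p = 0.50). The LPS changes themselves differed between genotypes for Mbnl2 (-2.27 ± 0.49, adjusted p = 0.040) and Smg1 (1.15 ± 0.24, adjusted p = 0.036), against 1.38% of all genes. These 2 calls were likewise lost without the 4 arrays, at -1.48 for Mbnl2 (adjusted p = 0.50) and 0.90 for Smg1 (adjusted p = 0.45). Without LPS no gene of the 4 lists was called between genotypes. The comparisons of LPS and of genotype share their groups, so their values are given side by side and are not independent.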

How the data were processed

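RNA of 15 samples was hybridised to Affymetrix exon and junction arrays. Per the labels, the authors deposited log2 SST-RMA values (signal space transformation and robust multi-array averaging) made in Affymetrix Expression Console; versions and genome build are not given in the sources used here. Of 725678 rows, 580167 carried 1 gene symbol (126817 none, 18694 several), and 1584 symbols were updated through RefSeq (GRCm38.p6). A gene's value was the median of its exon regions, for 31265 genes. The members and lists were chosen with earlier results of these data known.

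Groups were compared with limma 3.58.1 (R 4.3.3), lmFit and eBayes on 1 design of 4 group means, with Benjamini-Hochberg adjustment across all genes. The splicing index, row minus gene value, was tested likewise for rows whose mean reached the 25th percentile of all rows, in genes with at least 3 exon regions and above the median gene in the groups compared. The tests were tried on simulated data. Junction medians, their difference from exon regions, and rows with an older symbol were added after the data were seen.

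The text names Hnrnpll, Hnrnpl, Hnrnpf, Hnrnph1 and Srsf3 throughout. It further names, for LPS, up to 6 largest called rises and 6 falls without overlap, for genotype the called members or else the 4 lowest p-values, the 8 largest called rows moving against or at least 1 apart from their gene, and up to 3 genes a list; others are named where a count or range needs them. Alternatives were the mean of exon regions, further quantile normalization, centring on the median gene, a filter on dim genes, eBayes with trend and robust settings, only the groups compared, the replicate number as a block, omission of the 4 arrays with T cell markers, and of each array. Deviations of same-numbered arrays correlated at -0.25 to 0.23, and no chance level was computed for them. Between genotypes the correlations were all positive without LPS (0.04 to 0.20) and all negative with LPS (-0.16 to -0.02). No label ties an array to an animal, so the numbers were not used as pairs.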

Additional observations from a re-analysis of the deposited data

Results flagged for a closer look

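Of 93 sets of 4 arrays (31 members in 3 groups), 2 held an array far from the other 3 by Dixon's criterion, which chance meets in about 1 of 20 sets. Both were the first WT array without LPS. Its Srsf7 value was 13.7, against 14.4 in the nearest of the other 3 arrays. Its Hnrnpf value was 9.60, against 10.5 in the nearest.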

How the results depend on the processing

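Among the 31 members, the LPS counts changed by at most 1.5 times under every other setting tried: 14 to 20 in WT (15 as reported) and 4 to 7 in ELL2 cko cells (6). The exceptions arose with junction medians, added later, where WT had 8, and the Srsf5 difference in WT was 0.081. The 2 members called between genotypes with LPS were 1 with trend and robust eBayes and 1 with the replicate block, Srsf9 in both, with Srsf10 lost (adjusted p = 0.051 and 0.088). With the mean of exon regions neither was called, and the count of 1 was Hnrnpu (0.49, adjusted p = 0.016). The count was 0 with junction medians, with only the groups compared, and without the 4 arrays with T cell markers. Exon regions alone gave 100 rows for LPS in WT (of 153) and 20 in ELL2 cko cells (of 34), where omitting the 4 arrays gave 2. The 2 rows called between genotypes with LPS were 0 with the mean of exon regions, the replicate block, or omission of the 4 arrays. The 2 genes with a lower exon-region minus junction value in ELL2 cko cells were 1 with the replicate block and 0 without the 4 arrays. Leaving out each array gave 13 to 16 genes for LPS in WT, 5 to 7 in ELL2 cko, 0 between genotypes without LPS, 0 to 3 with LPS, and 0 to 1 for the difference of LPS changes (Hnrnpu at 1.05, adjusted p = 0.041, without the second WT array with LPS). For rows it gave 96 to 168, 10 to 39, 0, 0 to 16 and 0, and for the exon-region minus junction counts 2 to 6 in WT and 1 to 2 in ELL2 cko cells. Of the WT calls 13 of 15 held in every such fit. Same-numbered arrays differed in Xist for the second WT number, at 4.80 with and 17.26 without LPS. So did those of the fourth WT number (15.89 with, 5.14 without) and the third ELL2 cko number (16.5 with, 5.28 without). At these numbers the arrays with and without LPS thus cannot come from the same animal. Whether the numbers mark any other link between arrays was not settled, as no chance level was computed. In the 4 comparisons of 2 groups 4 of 8, 2 of 6, 5 of 8 and 0 of 6 arrays correlated best with their own number. The block left 14 of 15 WT calls, without Srsf10. Of 1621 repeats of named genes and rows, 1458 kept direction and call, 108 lost and 5 gained a call, 49 without a call changed sign, and 1 called value did, that of Srsf5. Why these values moved was not tested, beyond fewer arrays or rows by construction.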
